A study of Mus musculus with 6 samples.

Results

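Oncofetal liver genes are active in the fetal liver, are shut down in hepatocytes around or after birth, and return in liver tumours or regeneration. The 7 genes considered here were Afp, Gpc3, Igf2bp1, Igf2bp3, Lin28b, Hmga1 and Hmga2, taken with every probe set that the platform annotation assigns to exactly 1 gene. Of these, 5 genes had such probe sets, 15 in all among the 22626 probe sets tested. Lin28b and Hmga1 had none and were not analysed here.

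The transgenic livers came from mice whose conditional Tcfeb allele was switched on by crossing with an Alb-Cre line, so that TFEB, encoded by Tcfeb and an activator of lysosomal and autophagy genes, was overexpressed in the liver. The comparison livers were labelled wild type, with the titles CTL, and all 6 livers were taken at postnatal day 9, when Afp is still being shut down. The albumin promoter that drives Cre is active in hepatocytes and their precursors. The labels give neither strain nor sex and do not say whether wild-type mice carried the allele or Cre alone. Each group had 3 arrays, 1 per liver, called biological replicates. Values are RMA log2 expression, differences are transgenic minus wild type, and a probe set is called higher or lower at an adjusted p under 0.05 (limma, Benjamini-Hochberg over all 22626 probe sets).

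The members belong to linked parts of a fetal growth programme. AFP is the main plasma protein of the fetus and a tumour marker. GPC3 is a heparan sulfate proteoglycan anchored to the cell surface, which binds growth factors and WNT or Hedgehog ligands. LIN28B blocks maturation of the let-7 microRNAs, which in turn repress Hmga2, Igf2bp1 and Lin28b itself. IGF2BP1 and IGF2BP3 bind messenger RNAs such as those of Igf2 and Myc and alter their stability or translation, and HMGA1 and HMGA2 are small chromatin proteins that bind AT-rich DNA.

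The arrays stood close together within groups, with Pearson's r of 0.994 to 0.997 across probe sets within groups and 0.977 to 0.979 between them, probe sets not being independent. The Tfeb probe set read 6.52, 6.61 and 6.36 in transgenic liver, against 6.91, 6.63 and 6.58 in wild-type liver (difference -0.21, adjusted p = 0.178 by limma). Whether it lies within the part that the transgene carries is not stated, so it does not check the labels. Transgenic replicate 1 had a male pattern, with Xist at 5.58 and Eif2s3y at 9.32, and the other 5 arrays a female one. The results for the brightest probe set of each member are therefore also given without it. All 14 probe sets for the bacterial controls bioB, bioC and bioD, which are added in fixed amounts, read lower on the transgenic arrays, with no overlap between groups (median difference -0.37). Directions are those on the deposited scale. Scaling to these controls moved the median difference of all probe sets to 0.33, against -0.04 as deposited, and 93.2% of calls were then higher, against 51.0%.

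Afp, Igf2bp1 and Hmga2 were higher in transgenic liver, whereas Gpc3 and Igf2bp3 did not pass the test. Of the 15 probe sets, 7 (46.7%) were called higher and 0 lower, against 18.1% higher and 17.3% lower among all probe sets (35.4% in either direction). The differences were small, from -0.04 to 0.71 with a median of 0.26. For 10 of the 15 probe sets (66.7%) every transgenic value was above every wild-type value, against 24.6% of all probe sets, and for 0 every transgenic value was below, against 25.9%. Probe sets of 1 gene share a transcript and are not independent. Taking the brightest probe set of each gene, 3 of 5 genes were called higher, against 19.1% of all 12393 genes, where 38.6% changed in either direction. Without transgenic replicate 1, 6 probe sets were higher and 0 lower, and scaled to the bacterial controls all 15 were higher.

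**Figure D1:**
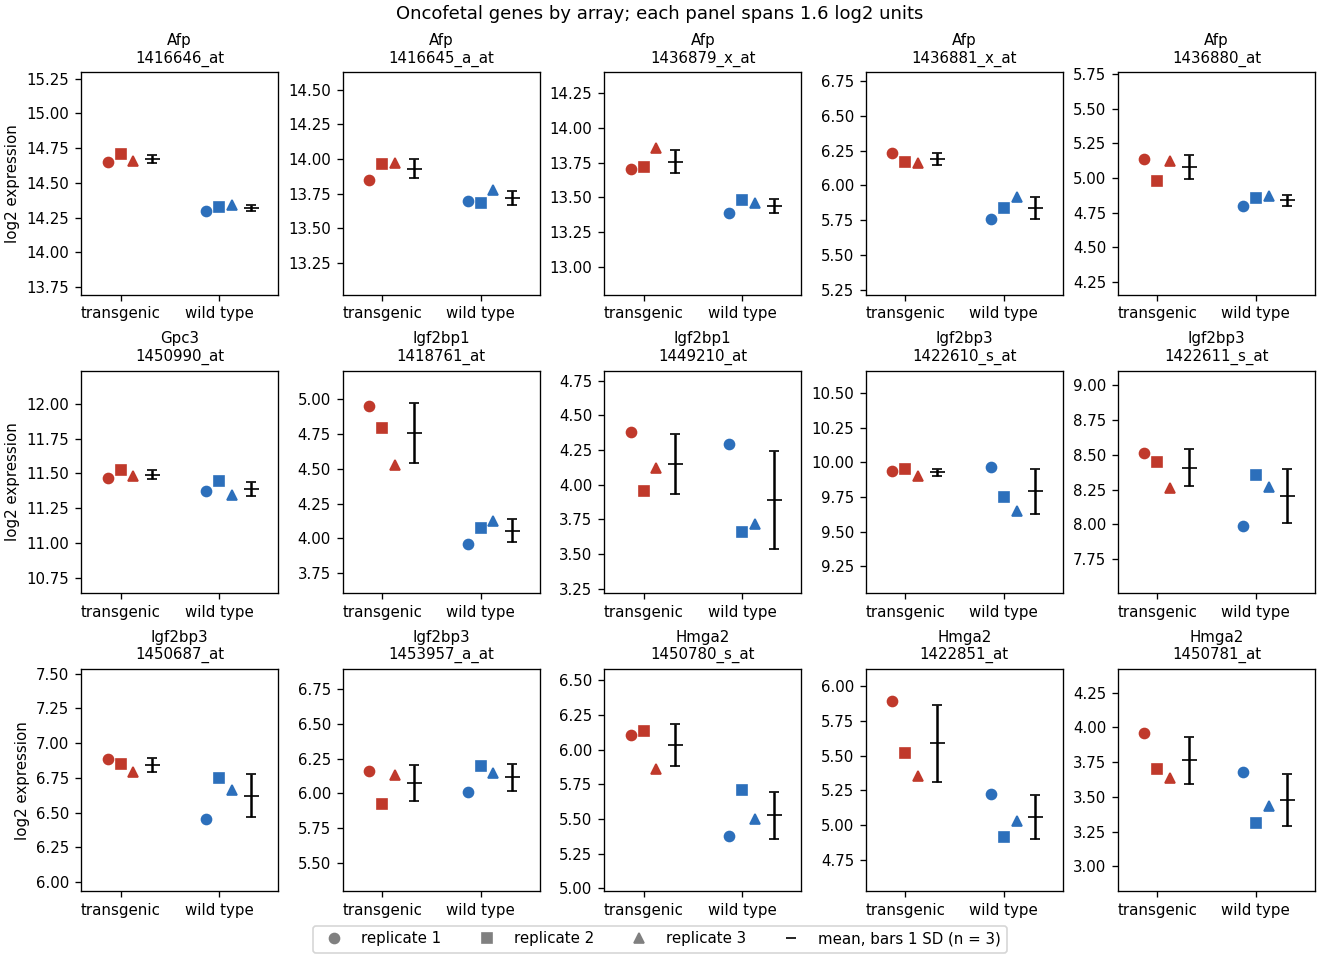
Log2 expression (y axis) of the 15 probe sets on the 3 transgenic and 3 wild-type arrays, with the mean and 1 SD beside the points (n = 3). All 5 Afp panels show the transgenic points above the wild-type points, while the points overlap in 3 of the 4 Igf2bp3 panels.

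Afp, the serum protein gene in the albumin gene cluster on chromosome 5 (GRCm38.p6, chr5:90490714-90508907), was higher in transgenic liver on 4 of its 5 probe sets, and the groups did not overlap on any of the 5. Its brightest probe set, 1416646_at, read 14.65, 14.71 and 14.66 in transgenic liver, against 14.30, 14.32 and 14.34 in wild-type liver. Every transgenic array was thus above every wild-type array, with a spread within groups of 0.03 and 0.02 (SD, n = 3 each). The difference was 0.35 (SE 0.06, 95% confidence interval 0.20 to 0.50), which is 1.28-fold, with an adjusted p of 0.00438 by limma. Among all probe sets 9 were brighter, so this reading lies near the top of the scale. Of the probe sets in the same brightness decile, which also holds the next 2 Afp probe sets and that of Gpc3, 32.4% were called higher, with a median difference of 0.09.

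The other bright Afp probe sets showed the same order of groups. Probe set 1436879_x_at read 13.71, 13.72 and 13.85 in transgenic liver, against 13.39, 13.48 and 13.46 in wild-type liver, a difference of 0.32 (adjusted p = 0.0128, limma). Probe set 1416645_a_at read 13.85, 13.97 and 13.97 in transgenic liver, against 13.69, 13.68 and 13.77 in wild-type liver. Its difference of 0.21 (SE 0.07) missed the threshold with an adjusted p of 0.0506 by limma, and passed it with the trend and robust options (0.00615), with array weights (0.0412), with quantile normalization repeated (0.0269) and without the dimmest 40% of probe sets (0.0283). It did not pass with any 1 array left out (adjusted p 0.0532 to 0.14, limma), and the adjusted p reached 0.157 among the processing alternatives.

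A pair of Afp probe sets read far lower on the array, and how far these readings lie above background is unknown. Probe set 1436881_x_at read 6.24, 6.17 and 6.16 in transgenic liver, against 5.76, 5.84 and 5.92 in wild-type liver, and its difference of 0.35 (adjusted p = 0.00753, limma) matched that of the brightest probe set in size. Probe set 1436880_at read 5.14, 4.98 and 5.13 in transgenic liver, against 4.80, 4.86 and 4.87 in wild-type liver. The call of 1436880_at (difference 0.24, adjusted p = 0.0362, limma) was lost without any 1 array except transgenic replicate 2 (adjusted p 0.0682 to 0.106). In its brightness decile 5.79% were called higher, and in that of 1436881_x_at 17.4%. The suffix _x_at marks probe sets whose probes may also bind other transcripts. The mean of all 5 Afp probe sets gave a difference of 0.29 (SE 0.06, adjusted p = 0.00621 in a limma fit over genes), and without transgenic replicate 1 the brightest gave 0.36 (adjusted p = 0.0143).

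The Afp promoter is shown because liver factors that control Afp bind there. Of the families whose motifs are marked, nuclear factor I genes were lower in these arrays and FOXA genes went both ways. No HNF1 gene was among the 18 regulator genes measured. The sequence is the 250 bases before the RefSeq start of Afp on assembly GRCm38.p6, plus strand, at chr5:90490464-90490713. Capitals mark GTTAA or its reverse TTAAC, which is only a part of the HNF1 site, and the FOXA motif TGTTTGC. Also marked is the nuclear factor I motif, which is TTGGC and GCC with 5 bases between them. Each was searched on both strands.
Afp: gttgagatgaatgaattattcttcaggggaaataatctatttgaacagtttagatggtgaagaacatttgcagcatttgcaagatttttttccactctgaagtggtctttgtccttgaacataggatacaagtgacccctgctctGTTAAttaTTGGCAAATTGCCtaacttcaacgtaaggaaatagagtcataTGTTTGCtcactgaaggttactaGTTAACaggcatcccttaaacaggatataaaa
Counted from the start, GTTAA began at -105 and -32, the second overlapping TTAAC at -31, the nuclear factor I motif began at -97 and the FOXA motif at -55, and the TATA box letters TATAAA began at -7. Among 32536 distinct windows of the same length before RefSeq starts, 21.7% held GTTAA or TTAAC, 1.23% the nuclear factor I motif and 4.31% the FOXA motif. The other 5 members in the promoter table held none of these 3 motifs in their windows, and Igf2bp1 is not in the table. A match of letters is a description and does not show binding.

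Genes for regulators of the Afp promoter and enhancers were mostly lower. The list does not separate activators from repressors, so this gives no direction for Afp. Falls were called for 11 of the 18 measured, a rise for 1 and neither for 6, with a median difference of -0.33, against a median of -0.04 and 19.5% lower over all genes. With arrays scaled to the bacterial controls, 1 was lower and 3 higher and the median was 0.04. Zbtb20, outside the rule for naming genes and among those not called, was at 0.36 (adjusted p = 0.101, limma), with 1 of its 3 probe sets higher. Cebpa, encoding a transcription factor of mature hepatocytes, read 8.87, 9.04 and 9.12 in transgenic liver, against 9.92, 9.87 and 9.64 in wild-type liver, a difference of -0.80 (SE 0.10, adjusted p = 0.000797, limma). The groups were apart by more than the spread within either.

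Nfix, a nuclear factor I gene, fell by 0.62 (SE 0.07), and 4 of its 5 probe sets were lower. Foxa3, a forkhead factor gene of the liver, also fell by 0.62 (SE 0.10), whereas its relative Foxa1 rose by 0.93 (SE 0.17). Foxa1 read 8.01, 8.29 and 8.20 in transgenic liver, against 7.63, 6.94 and 7.13 in wild-type liver, so wild-type replicate 1 lay nearest to the transgenic arrays. Scaled to the bacterial controls, Nfix (adjusted p = 0.0567, limma) and Foxa3 (0.0756) no longer passed. The count of genes that fell was 7 without transgenic replicate 2.

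Zhx2, the liver repressor behind the mouse Afr1 locus that silences Afp after birth, was not analysed here. Of its known targets apart from the members, 5 were measured, of which 1 rose and 2 fell, against 19.1% and 19.5% of all genes. The list does not separate targets by the direction of control, so the median is a description only. Their median of -0.39 became -0.23 when wild-type replicate 1 was left out and -0.24 when transgenic replicate 2 was, with -0.50 at the other end of the range over arrays left out. It also ran from -0.02 with scaling to the bacterial controls to -0.91 without the dimmest probe sets. Cyp4a12a, a fatty acid hydroxylase of the male mouse liver, read 8.69, 7.23 and 8.03 in transgenic liver, against 4.42, 3.93 and 3.95 in wild-type liver, a difference of 3.88 (SE 0.32, adjusted p = 9.03e-05, limma). The highest of these values was that of transgenic replicate 1, which had the male pattern, and the other transgenic arrays were also above every wild-type array. Without that array the difference was 3.53 (adjusted p = 0.000143, limma). Cyp2a12, another P450, fell by 1.43 (SE 0.10), and Lpl, the lipoprotein lipase gene that is expressed in newborn liver, fell by 0.91 (SE 0.09).

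Of the 2 other genes of the albumin cluster that were measured, 1 fell and 1 did not pass. Afm, encoding the vitamin E-binding protein afamin, read 12.36, 12.23 and 12.52 in transgenic liver, against 13.07, 13.23 and 13.09 in wild-type liver, and fell by 0.76 (SE 0.09, adjusted p = 0.000626, limma) on both of its probe sets. Alb itself, outside the rule for naming genes, read 14.87, 14.87 and 14.88 in transgenic liver, against 14.84, 14.86 and 14.90 in wild-type liver. It was the brightest probe set on the arrays, and its interval ran from -0.15 to 0.15.

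Gpc3, the glypican used as a marker of liver cancer, was bright in both groups and did not pass the test. Its single probe set, 1450990_at, read 11.47, 11.53 and 11.48 in transgenic liver, against 11.37, 11.44 and 11.34 in wild-type liver. The lowest transgenic value was just above the highest wild-type value, with a difference of 0.11 (SE 0.07, 95% confidence interval -0.05 to 0.26, adjusted p = 0.255 by limma). Gpc3 lies on chromosome X (GRCm38.p6, chrX:52272426-52613974). Without transgenic replicate 1 the difference was 0.12 (adjusted p = 0.311). Over the arrays left out in turn the adjusted p ranged from 0.234 to 0.454. Scaled to the bacterial controls Gpc3 passed, at 0.48 (adjusted p = 0.00187).

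Other proteoglycan genes around GPC3 were mostly lower. Over all genes 19.5% were lower. Of the 21 genes with a probe set for glypicans, syndecans, heparan sulfate enzymes and proteins that cut or bind GPC3, 11 fell, 1 rose and 9 did not pass, with a median of -0.25 that became 0.12 with scaling to the bacterial controls, when 2 were lower and 5 higher. Notum, encoding a secreted lipase that inactivates WNT ligands, read 6.74, 6.59 and 6.71 in transgenic liver, against 8.51, 7.89 and 8.06 in wild-type liver, a difference of -1.47 (SE 0.15, adjusted p = 0.000252, limma). Sdc2, a syndecan gene, fell by 1.31 (SE 0.07), with each of its 3 probe sets lower.

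Gpc6, another glypican gene, fell by 0.56 (SE 0.09), and with scaling to the bacterial controls it did not pass (adjusted p = 0.156, limma). Hs6st2, a heparan sulfate sulfotransferase gene, rose by 0.84 (SE 0.16), on 1 of its 3 probe sets. Over the mean of those probe sets it did not pass (difference 0.32, adjusted p = 0.0563). The count of genes that fell was 7 without transgenic replicate 3.

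**Figure D2:**
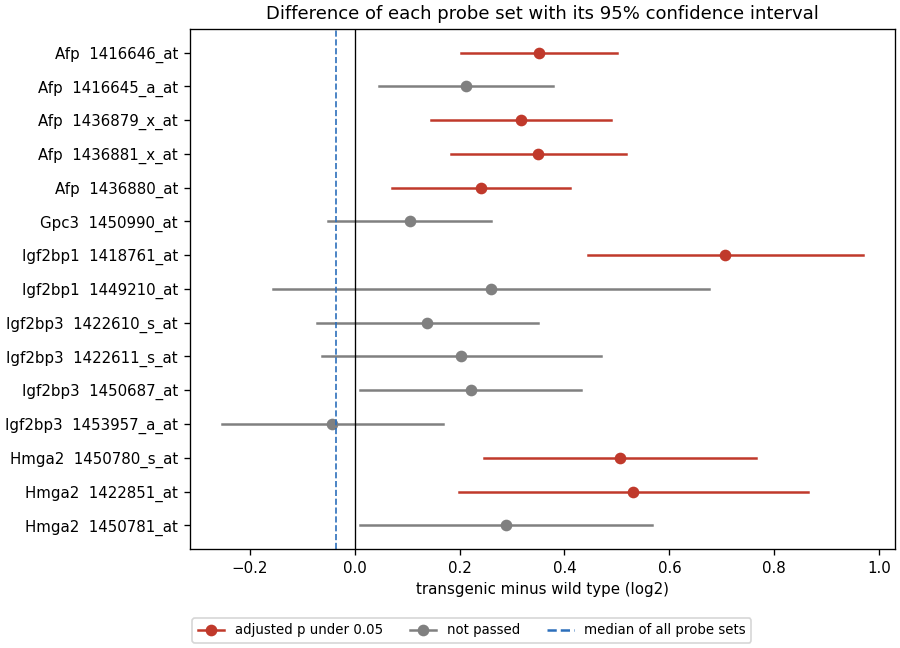
Difference of each probe set, transgenic minus wild type on the log2 scale (x axis), with its 95% confidence interval and with the dashed line at the median of all probe sets (-0.04). Of the 15 intervals, 7 belong to probe sets called higher, and the point of Igf2bp3 1453957_a_at is the only one below 0 (-0.04).

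Igf2bp1, which encodes an mRNA-binding protein of fetal tissues, showed the widest difference among the members, at dim readings. The gene lies on chromosome 11 (GRCm38.p6, chr11:95957163-96005944). Probe set 1418761_at read 4.95, 4.80 and 4.53 in transgenic liver, against 3.96, 4.07 and 4.12 in wild-type liver. The groups were well separated and the transgenic arrays varied more (SD 0.22) than the wild-type arrays (SD 0.08, n = 3 each). The difference was 0.71 (SE 0.11, 95% confidence interval 0.44 to 0.97), or 1.63-fold, with an adjusted p of 0.00239 by limma. Among the probe sets of the same brightness decile the median difference was -0.14 and 2.74% were called higher.

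The second Igf2bp1 probe set, 1449210_at, read 4.38, 3.95 and 4.12 in transgenic liver, against 4.30, 3.66 and 3.72 in wild-type liver. Here wild-type replicate 1 lay among the transgenic arrays, and the difference of 0.26 (SE 0.18, adjusted p = 0.291, limma) did not pass. Without that array it was 0.46 (adjusted p = 0.0281). The files hold no detection calls, so how far these readings lie above background is unknown. Without transgenic replicate 1, probe set 1418761_at gave 0.61 (adjusted p = 0.00713). The 2 probe sets averaged gave 0.48 (adjusted p = 0.012 in a limma fit over genes).

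Igf2bp3, the close relative of Igf2bp1 on chromosome 6 (chr6:49085218-49215469), did not pass on any of its 4 probe sets. The brightest, 1422610_s_at, read 9.93, 9.95 and 9.90 in transgenic liver, against 9.97, 9.75 and 9.65 in wild-type liver. The transgenic values were tightly grouped inside the wild-type range, and the difference was 0.14 (SE 0.09, 95% confidence interval -0.07 to 0.35, adjusted p = 0.269 by limma). Without transgenic replicate 1 it was 0.14 (adjusted p = 0.385). In its brightness decile 29.9% of probe sets were called higher. Probe set 1450687_at read 6.89, 6.85 and 6.79 in transgenic liver, against 6.45, 6.75 and 6.66 in wild-type liver, without overlap (difference 0.22, adjusted p = 0.0945, and 0.20 with 0.205 without transgenic replicate 1).

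The other 2 Igf2bp3 probe sets overlapped between groups. Probe set 1422611_s_at read 8.52, 8.45 and 8.26 in transgenic liver, against 7.99, 8.36 and 8.27 in wild-type liver (difference 0.20, adjusted p = 0.202, limma). Probe set 1453957_a_at read 6.16, 5.93 and 6.13 in transgenic liver, against 6.01, 6.19 and 6.15 in wild-type liver. Its difference was -0.04 (adjusted p = 0.738, limma), and turned to 0.01 with cyclic loess, to 0.33 with scaling to the bacterial controls and to 0.03 without transgenic replicate 2. Without transgenic replicate 1 the differences were 0.15 for 1422611_s_at (adjusted p = 0.418) and -0.09 for 1453957_a_at (0.545).

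Of the 4 measured members in the promoter table, Igf2bp3 is the one whose promoter window holds the E-box CACGTG, the core of the motif that TFEB is known to bind. The last 120 bases before the RefSeq start used, on GRCm38.p6, minus strand, at chr6:49214955-49215074, are shown with the E-box in capitals. They lie inside the annotated span of the gene, whose upstream end on this strand is at 49215469. The sequence before that end is not shown.
Igf2bp3: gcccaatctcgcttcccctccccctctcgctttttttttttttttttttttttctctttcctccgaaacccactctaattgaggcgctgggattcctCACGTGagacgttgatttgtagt
The E-box began 23 bases before the start and lay within the longer palindrome TCACGTGA. In windows of 250 bases before the start, CACGTG was present in 6.04% of 32536 windows and TCACGTGA in 0.793%. Among the members Lin28b also held CACGTG, at -49, and the windows of Afp, Gpc3, Hmga1 and Hmga2 did not. These letters do not show that TFEB binds there.

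Proteins that share messenger RNA granules with the IGF2BPs were higher for 8 of 18 measured genes, with 0 lower and 10 not passed (median 0.19), against 19.1% higher over all genes. Most genes of this list lay in the brightest decile of probe sets, where 32.4% were called higher, or in the next, where 29.9% were. Khdrbs1, encoding the RNA-binding protein SAM68, read 10.55, 10.32 and 10.37 in transgenic liver, against 9.91, 9.92 and 9.96 in wild-type liver, a difference of 0.49 (SE 0.08, adjusted p = 0.00265, limma), although 1 of its 7 probe sets was lower and the mean over them gave 0.23 (adjusted p = 0.0258). Dhx9, an RNA helicase gene, rose by 0.34, Syncrip, an hnRNP gene, also by 0.34, and Fxr1, a relative of the fragile X gene, by 0.32. The number higher was 4 without wild-type replicate 2, 5 without wild-type replicate 3, 4 without transgenic replicate 1 and 3 without transgenic replicate 2, as well as 5 with quantile normalization repeated and 4 with cyclic loess. Scaled to the bacterial controls it was 17. Syncrip missed the threshold when wild-type replicate 2 was left out (adjusted p = 0.0615) and when transgenic replicate 1 was (0.0609), as well as with repeated quantile normalization (0.0505) and cyclic loess (0.0599). Dhx9 missed it over the mean of its probe sets (0.18, adjusted p = 0.0614) and without transgenic replicate 2 (0.0503).

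Hmga2, the AT-hook chromatin gene that let-7 represses, was higher on 2 of its 3 probe sets. It lies on chromosome 10 (GRCm38.p6, chr10:120361268-120476469). Probe set 1450780_s_at read 6.11, 6.14 and 5.86 in transgenic liver, against 5.38, 5.71 and 5.50 in wild-type liver. The lowest transgenic array was above the highest wild-type array, with a difference of 0.51 (SE 0.11, 95% confidence interval 0.25 to 0.76), or 1.42-fold (adjusted p = 0.0102 by limma). Its adjusted p stayed between 0.00919 and 0.0405 with each array left out in turn, and was 0.036 without transgenic replicate 1 (difference 0.47).

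Probe set 1422851_at of Hmga2 read 5.89, 5.52 and 5.35 in transgenic liver, against 5.22, 4.91 and 5.03 in wild-type liver. Its difference of 0.53 (SE 0.14, adjusted p = 0.0234, limma) did not pass when wild-type replicate 2 (adjusted p = 0.0776), wild-type replicate 3 (0.0603) or transgenic replicate 2 (0.0506) was left out. The dimmest, 1450781_at, read 3.96, 3.70 and 3.64 in transgenic liver, against 3.68, 3.31 and 3.44 in wild-type liver, with overlapping groups and a difference of 0.29 (adjusted p = 0.0981, limma). Among the probe sets of the brightness decile that holds the 2 called ones, the median difference was -0.11 and 11.5% were called higher.

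Of the 19 measured genes of the LIN28 and let-7 pathway, 6 were called higher and 1 lower, with 12 not passing (median 0.21). Over all genes 19.1% were higher and 38.6% were called in either direction. Tut7, a terminal uridylyl transferase that modifies let-7 precursors, read 10.79, 11.05 and 11.09 in transgenic liver, against 10.30, 10.12 and 10.21 in wild-type liver, a rise of 0.77 (SE 0.10, adjusted p = 0.00077, limma) on 1 of its 2 probe sets. Ago2, which encodes the slicing Argonaute protein, rose by 0.57 (SE 0.09), and the let-7 target Nras rose by 0.46 (SE 0.08), with each of its 3 probe sets higher.

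Lin28a, the relative of Lin28b, was dim, at 3.46, 3.57 and 3.33 in transgenic liver, against 3.98, 3.76 and 3.70 in wild-type liver. Its difference of -0.36 (adjusted p = 0.0244, limma) was seen on 1 of 2 probe sets. It was lost when wild-type replicate 1 (adjusted p = 0.0531), transgenic replicate 1 (0.0597) or transgenic replicate 3 (0.082) was left out and with cyclic loess (0.0858) or repeated quantile normalization (0.0782), and the difference became 0.01 with scaling to the bacterial controls. Without transgenic replicate 2, 3 genes of the list rose and 2 fell. With scaling to the bacterial controls 16 rose and 0 fell.

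**Figure D3:**
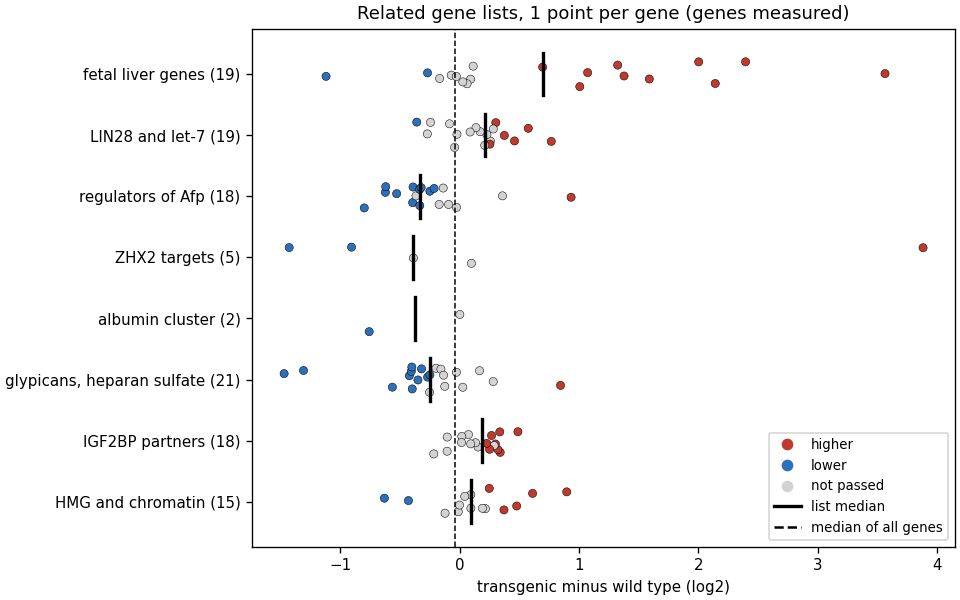
Difference of each measured gene (x axis, log2, transgenic minus wild type), with 1 row per related list, the number measured in brackets, a bar at the list median and a dashed line at the median of all genes (-0.04). The medians run from 0.69 for fetal liver genes to -0.39 for the 5 ZHX2 targets.

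Other genes of fetal liver or hepatoblasts were called higher for 10 of 19 and lower for 2, and 7 were not called, with a median of 0.69. Without suffixed probe sets 7 were higher and the median was 0.42, and with scaling to the bacterial controls 15 were higher and the median was 1.07. Over all genes 19.1% were higher and 19.5% lower. This list, like the members and the other lists, was chosen with earlier results of these data known. Its count beside the share of all genes is therefore a description only. Bex2, a small adaptor protein gene on chromosome X, read 12.43, 12.61 and 12.41 in transgenic liver, against 8.65, 9.01 and 9.10 in wild-type liver, a difference of 3.56 (SE 0.12, adjusted p = 2.22e-06, limma). This is 11.8-fold and far wider than any difference of the 5 members. Without transgenic replicate 1 it was 3.59. Ccl2 rose by 2.40 (SE 0.19) and encodes a chemokine that activated stellate cells and macrophages also make.

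The genes Cdkn1c and Igf2 went the other way. Cdkn1c, an imprinted inhibitor of the cell cycle, fell by 1.12 (SE 0.09). Igf2, the fetal growth factor whose mRNA the IGF2BPs bind, read 13.76, 13.83 and 13.69 in transgenic liver, against 14.05, 14.05 and 13.99 in wild-type liver, and fell by 0.27 (SE 0.07, adjusted p = 0.0204, limma). The Igf2 call was lost when wild-type replicate 2 (adjusted p = 0.0615), transgenic replicate 1 (0.0528) or transgenic replicate 3 (0.069) was left out, and 1 gene of the list then fell. Scaled to the bacterial controls Igf2 had a difference of 0.10 (adjusted p = 0.42).

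A pair of further oncofetal genes in that list, named after their values were seen, were among those that rose. Sall4, a zinc finger gene of fetal liver and liver cancer, read 6.90, 7.36 and 7.27 in transgenic liver, against 5.88, 5.75 and 5.77 in wild-type liver (difference 1.38, adjusted p = 0.000123, limma). Dlk1, a surface protein of hepatoblasts, read 6.82, 7.99 and 7.64 in transgenic liver, against 6.36, 6.52 and 6.35 in wild-type liver (difference 1.07, adjusted p = 0.0144), and did not pass without transgenic replicate 3 (adjusted p = 0.0537). For Dlk1 the array with the male pattern was the lowest of the transgenic arrays.

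High mobility group and chromatin genes other than the members went both ways: of 15 measured, 5 were called higher and 2 lower (median 0.09), against 19.1% and 19.5% of all genes. Hmgb3, an HMG-box gene of stem and progenitor cells, read 10.01, 9.93 and 9.82 in transgenic liver, against 8.88, 8.98 and 9.20 in wild-type liver, a rise of 0.90 (SE 0.10, adjusted p = 0.000396, limma). Hmg20b rose by 0.61, while Hmgn5, a nucleosome-binding gene, fell by 0.63 and Cbx3, a heterochromatin protein gene, fell by 0.43. The number higher was 3 without wild-type replicate 2. With scaling to the bacterial controls 11 rose, 0 fell, and the differences of Hmgn5 and Cbx3 (adjusted p = 0.0526 and 0.67, limma) did not pass.

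Cell types other than hepatocytes can also express these genes, fetal blood precursors among them, and in whole liver fewer cells of a type and less RNA per cell cannot be told apart. Hepatocyte markers were present and bright, and 7 of 9 fell, led by Tdo2 (-3.58) and Apoc3 (-1.44). Beside every marker count stand 19.1% higher and 19.5% lower over all genes. Their summed linear level was 98653 to 99907 in transgenic liver, against 120176 to 121579 in wild-type liver. Among 9 erythroid markers 5 rose, led by Rhag (1.02) and Slc4a1 (1.00), with summed levels of 5878 to 7815 in transgenic liver, against 6159 to 7110 in wild-type liver. RMA values have no zero, so absence of a cell type cannot be read from them. Bile duct markers rose for 5 of 8 and fell for 1, with sums of 4231 to 5649 in transgenic liver, against 3071 to 4336 in wild-type liver, Cldn4 (4.61) and Cldn7 (3.56) changing most. The 1 that fell, outside the rule for naming genes, was Prom1 (-1.89), while Krt19 (-0.27) and Cftr (0.38) were not called.

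Granulocyte markers fell for 7 of 9 and lymphoid markers for 8 of 9, with 0 higher in either list, against 19.5% lower over all genes. Camp (-2.78) and Ngp (-2.67) led the granulocyte list, Vpreb1 (-2.55) and Igll1 (-2.03) the lymphoid list. The granulocyte sums were 3391 to 7254 in transgenic liver, against 11513 to 25525 in wild-type liver, and the lymphoid sums 680 to 865 in transgenic liver, against 1366 to 2567 in wild-type liver. Proliferation markers rose for 2 of 17, not above the 19.1% of all genes that were higher, with 0 lower and 15 not passed. Their list median was 0.21, against -0.04 over all genes. Their sums overlapped, at 13988 to 15539 in transgenic liver and 12103 to 14436 in wild-type liver. Bub1 (0.46, adjusted p = 0.0462, limma) was 1 of those called, and kept its call only when wild-type replicate 3 was the array left out (adjusted p up to 0.123 otherwise). Rrm2 (0.40, adjusted p = 0.0581) passed without that array (0.0051). Macrophage markers fell for 3 of 9, with Adgre1, whose groups overlapped, and Marco at -0.56 each. Both calls were lost without wild-type replicate 2, wild-type replicate 3 or transgenic replicate 2, that of Adgre1 also without transgenic replicate 1 and that of Marco also without transgenic replicate 3 (adjusted p up to 0.108 and 0.112). The macrophage sums were 13793 to 17575 in transgenic liver, against 16738 to 21265 in wild-type liver. Endothelial markers rose for 1 (Lyve1, 0.40) and fell for 4 of 9, with a list median of -0.19. The 4 that fell, outside the rule for naming genes, were Cdh5 and Kdr (-0.38 each), Tek (-0.37) and Stab2 (-0.34). The Lyve1 call was lost without wild-type replicate 1 or 3 or transgenic replicate 1 or 2 (adjusted p up to 0.0779) and over the mean of its probe sets (0.29, adjusted p = 0.0682). Clec4g at 0.41 did not pass, except without wild-type replicate 1 (adjusted p = 0.0087), and the endothelial sums overlapped, at 5003 to 5679 in transgenic liver and 4947 to 5819 in wild-type liver. Stellate markers rose for 1 (Acta2, 0.96) and fell for 3 of 9, Reln (-1.06) among them. Of the 2 Acta2 probe sets 1 was higher and 1 lower, their mean not passing (0.30, adjusted p = 0.102). The stellate sums were 15339 to 17833 in transgenic liver, against 18072 to 19200 in wild-type liver. Of 6 acinar markers 2 fell, Cela2a (-0.90) and Cela1 (-0.69), with sums of 440 to 469 in transgenic liver, against 626 to 668 in wild-type liver. The part of these cell types in the values of Afp, Igf2bp1 and Hmga2 was not tested.

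The genes with the profile most like each called member over the 6 arrays are given as a description, likeness being the root mean square (RMS) difference between profiles after each profile's own mean was subtracted. Nearest to Afp were Psme4, a proteasome activator gene, at an RMS difference of 0.018, and Rars, an arginyl-tRNA synthetase gene, at 0.020. For Afp, 1178 of 12392 other genes lay within 0.1, so this shape was common. Nearest to Igf2bp1 were Vcl, the vinculin gene of cell adhesions, at 0.049 and Pabpc4, a poly(A)-binding protein gene, at 0.072, with 30 genes within 0.1. Nearest to Hmga2 were Lrrc59, not called without transgenic replicate 1 (adjusted p = 0.0599, limma) or 2 (0.0638), at 0.036 and Ppif, the mitochondrial cyclophilin gene, at 0.055, with 61 genes within 0.1.

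**Figure D4:**
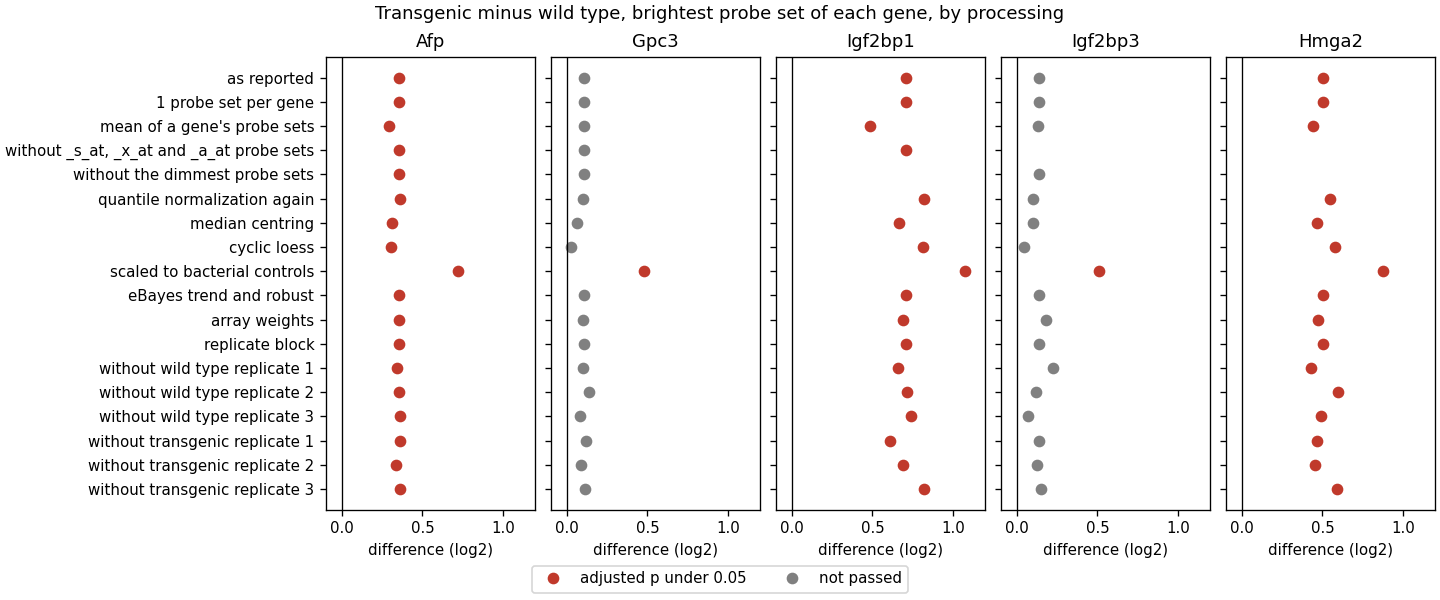
Difference of the brightest probe set of each gene (x axis, log2, transgenic minus wild type) as reported and under each processing alternative (rows), in red where the adjusted p is under 0.05. Afp, Igf2bp1 and Hmga2 stay red in each row that has a point, and Gpc3 and Igf2bp3 turn red only with scaling to the bacterial controls.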

How the data were processed

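Liver RNA of 3 transgenic and 3 wild-type mice was labelled as biotinylated cRNA for hybridisation to Affymetrix arrays, per the labels' protocols. The authors deposited log2 values per probe set, made with affy and RMA per the submitters' processing notes, whose versions are not given there. There are 22690 probe sets, 0 missing values and no detection calls. RMA hides any change in total RNA. The number of arrays limits the precision.

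Of these probe sets, 64 array controls were left out, 20380 have 1 gene, 691 several and 1555 none, and 20351 matched a RefSeq gene of GRCm38.p6 by Entrez identifier with 0 symbols changed. Each probe set was fitted with limma 3.58.1 in R 4.3.3 (lmFit, eBayes, no covariates), two-sided, with Benjamini-Hochberg adjustment over 22626. Exact permutation of 3 against 3 arrays can give no p below 0.1. For lists, a gene was represented by its brightest probe set over the 6 arrays, and 116 of 146 genes in 8 related lists were measured. Named genes are all members, in each related list at most 4 called genes, the 2 that changed most in each direction coming first, 2 genes per marker list and 2 nearest profiles per called member.

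The members and lists were chosen with earlier results of these data known. Alternatives were 1 probe set or the mean of probe sets per gene, leaving out suffixed or the 40% dimmest probe sets, repeated quantile normalization, median centring, cyclic loess, scaling to bacterial controls, trend and robust eBayes, array weights, each array left out in turn, and the replicate number as a block. On simulated data for this comparison, over 22626 probe sets of which 200 were changed, log2 changes of 0.5, 1 and 2 were recovered for 67.2%, 100% and 100%, with 3 false calls. Far more probe sets (35.4%) were called in the data, so these rates need not carry over. Changes under 0.5, such as most member differences, were not simulated. Promoter sequences are RefSeq's on GRCm38.p6, with 6 of 7 members matched. Figures used Python 3.11.15, pandas 2.3.3 and matplotlib 3.10.9.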

Additional observations from a re-analysis of the deposited data

How the results depend on the processing

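The brightest probe sets of Afp, Igf2bp1 and Hmga2 stayed higher and past the threshold in every alternative that gave a value, with adjusted p of 4.05e-05 to 0.0221, 7.14e-05 to 0.0123 and 0.000217 to 0.0405. Leaving out each array gave differences of 0.33 to 0.36 for Afp, 0.61 to 0.82 for Igf2bp1, 0.43 to 0.60 for Hmga2, 0.08 to 0.13 for Gpc3 and 0.07 to 0.23 for Igf2bp3, and 5 to 8 member probe sets higher with 0 lower. Scaling to the bacterial controls, which shifts all values one way by construction, took Gpc3 to 0.48 and Igf2bp3 to 0.51, both past the threshold, made all 15 member probe sets higher, and left 69 genes of the related lists higher and 7 lower, against 32 and 30 as reported (23 to 31 and 21 to 27 with an array left out). The member probe sets called higher were 4 without suffixed probe sets, where 8 remained to be tested, and 4 without the dimmest, where 9 remained. Settings with 1 value per gene give no count of probe sets. The brightest probe sets of Igf2bp1 and Hmga2 are left out with the dimmest, and those of Igf2bp3 and Hmga2 with the suffixed ones, so they have no value there.

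Signs turned for Igf2bp3 1453957_a_at with cyclic loess (0.0066), bacterial controls (0.33) and without transgenic replicate 2 (0.0312). With bacterial controls they turned for the medians of the Afp regulators (0.042) and proteoglycans (0.12) and for Igf2 (0.10) and Lin28a (0.0108), and the albumin cluster median was 0.0007 without suffixed probe sets, when Alb alone remained. Alb, not called, was at 0 with quantile normalization, -0.0403 with median centring, -0.0431 with cyclic loess and -0.0049 with array weights, and at -0.0138 to 0.0173 with arrays left out.

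The cause of these changes was not tested beyond what the construction of an alternative shows. The replicate numbers do not pair the arrays: same-numbered deviations correlated at -0.10, -0.02 and 0.05. With a replicate block the 5 brightest member probe sets kept their calls (Afp 0.35, adjusted p = 0.019, limma) and 7 member probe sets were higher, and 7 Afp regulators fell, against 11 without it. That count was also 7 without suffixed probe sets. Dim readings limit Igf2bp1, Hmga2 and the Afp probe sets 1436881_x_at and 1436880_at, since signal over background is unknown.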
